A study of Mus musculus with 2 samples.

Results

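Regions of the liver genome with very many reads of captured methylated DNA were examined in 1 Pemt+/+ mouse and set beside the same places in 1 Pemt-/- mouse. Both were given high-fat, high-sucrose (HFHS) chow from 5 weeks of age, and the sample records date the livers to 25 weeks of age. The Methods speak of male mice and of livers taken after shorter feeding ahead of the capture step, and the sample records, but not the Methods, mention bisulphite conversion. The Pemt-/- mouse lacks phosphatidylethanolamine N-methyltransferase, the liver enzyme that makes phosphatidylcholine by methylating phosphatidylethanolamine, and the Pemt+/+ mouse is the wild-type counterpart on the same chow.

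Each genotype was 1 library from 1 animal. There were no replicates, so no spread between mice could be set against any difference, no p-value is given, and every comparison is of these 2 libraries rather than of the genotypes. The regions were chosen by their Pemt+/+ tags, a tag being 1 sequenced read counted in a region: all Pemt+/+ regions with at least 80 tags, each taken once, together with every Pemt-/- region that overlapped one by at least 1 bp. This selected 1023 of the 131279 Pemt+/+ regions (0.779%), which held 125751 of the 2847831 tags in that list (4.42%). They met 1095 of the 97063 Pemt-/- regions. Because the Pemt+/+ tags chose the members, the tag counts, the region lengths and the ratio of Pemt-/- to Pemt+/+ tags are descriptions and were not tested.

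In a capture of this type a methyl-CpG-binding protein pulls down DNA fragments that carry methylated cytosines next to guanines, and the fragments are then sequenced. In mammalian somatic cells most CpG sites are methylated, in particular in repeats, gene bodies and satellite DNA, while many promoters rich in CpG are free of the mark. Imprinted genes carry it on 1 parental allele, the inactive X chromosome of females carries it at many promoters, and genes used only in germ cells are often methylated in the rest of the body. Mouse chromosomes have their centromere at 1 end, so the first assembled bases of each chromosome lie near centromeric satellite DNA. The unplaced sequences are assembled pieces that have no known position, some of them assigned to a chromosome and some to none. How many copies a sequence has in these animals was not measured.

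A region could be seen beside a gene's own sequence where it covered the 5′ end of a transcript. That was so for 15 of the members (1.47%, against 361 or 0.275% of all Pemt+/+ regions). These 15 regions named 17 genes, of which 12 matched a RefSeq promoter by gene identifier. The promoters of 5 of them, whose regions are described next, are shown. They are those of an imprinted retrogene (Zrsr1), the RNA that silences the X chromosome (Xist), and relatives of transketolase (Tktl2), of a DEAD-box helicase (D1Pas1) and of lactate dehydrogenase (Ldhal6b). Each line gives the 250 bases before the start in assembly GRCm38.p6, 5′ to 3′ on the gene's strand, with every CG in capitals. The regions are in mm9 coordinates, so these letters show the gene's promoter and not the exact bases of the region.
Zrsr1: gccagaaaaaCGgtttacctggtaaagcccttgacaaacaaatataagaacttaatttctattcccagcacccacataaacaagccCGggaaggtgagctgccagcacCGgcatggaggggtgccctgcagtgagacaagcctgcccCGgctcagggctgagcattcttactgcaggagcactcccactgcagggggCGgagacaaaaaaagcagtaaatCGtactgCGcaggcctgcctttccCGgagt
Xist: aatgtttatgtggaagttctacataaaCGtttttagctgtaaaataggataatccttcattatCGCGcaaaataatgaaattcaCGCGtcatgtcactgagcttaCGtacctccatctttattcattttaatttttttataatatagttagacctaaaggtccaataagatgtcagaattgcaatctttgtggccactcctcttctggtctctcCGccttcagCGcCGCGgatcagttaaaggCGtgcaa
Tktl2: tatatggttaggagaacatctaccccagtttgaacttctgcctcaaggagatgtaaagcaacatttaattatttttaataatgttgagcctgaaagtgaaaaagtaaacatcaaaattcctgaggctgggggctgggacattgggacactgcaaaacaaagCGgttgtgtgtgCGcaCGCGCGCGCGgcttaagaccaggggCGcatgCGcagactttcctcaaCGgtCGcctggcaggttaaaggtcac
D1Pas1: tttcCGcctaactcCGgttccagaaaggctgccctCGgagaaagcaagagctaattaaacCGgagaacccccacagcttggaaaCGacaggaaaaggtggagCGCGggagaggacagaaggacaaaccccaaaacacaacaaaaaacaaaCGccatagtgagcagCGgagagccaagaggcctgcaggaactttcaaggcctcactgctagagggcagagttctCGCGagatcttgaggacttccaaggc
Ldhal6b: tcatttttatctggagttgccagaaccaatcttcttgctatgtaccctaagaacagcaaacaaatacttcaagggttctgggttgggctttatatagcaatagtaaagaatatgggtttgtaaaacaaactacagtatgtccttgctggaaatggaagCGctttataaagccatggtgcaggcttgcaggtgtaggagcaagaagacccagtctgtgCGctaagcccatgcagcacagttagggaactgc
The motif counted was CG, which reads the same on both strands. The Zrsr1 sequence holds 8, as do or exceed 43.0% of all 32851 RefSeq promoters of 27025 genes. The Xist, Tktl2 and D1Pas1 sequences hold 11 each, a number reached by 35.6% of promoters. Ldhal6b holds 2, reached by 81.2%. Over the 15 matched promoters of the 12 genes the median was 7, with a range of 0 (Cypt4) to 20 (Ankrd50), neither of which is shown, against a median of 6 (quartiles 2 and 16) over all promoters. These counts overlap those of promoters in general.

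At the 5′ ends, the highest member lay at Sfi1, a gene for a centrosomal protein, with 1190 Pemt+/+ and 880 Pemt-/- tags. At Dux, a double homeobox gene that is active in the early embryo, there were 184 and 138 tags. The Xist region on chromosome X, from 100676407 to 100679159, held 153 and 79 tags. Xist is silent on the single X of a male, and a region of 2753 bp over its start was present in both libraries. At Peg10, an imprinted gene derived from a retrotransposon, with its neighbour Sgce, the counts were 125 and 64. Ldhal6b had 121 and 81, with 21 of the 81 from a Pemt-/- region that also overlapped another Pemt+/+ region. Plce1 (a phospholipase C) had 118 and 71, and Tktl2 114 and 76. In each of these regions the Pemt-/- count was the lower one.

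Among the rest of the 5′ ends, D1Pas1 held 111 Pemt+/+ and 101 Pemt-/- tags, but that Pemt-/- region also overlapped a second Pemt+/+ region, and over both the tags were 155 and 101 (ratio 0.652). Tdgf1, which encodes a co-receptor for Nodal, held 107 and 44. The region over Cypt4, Cypt9 and Cypt10, spermatid genes, held 97 and 56, and Tlr6, a receptor of innate immunity, 97 and 40. Zrsr1 held 94 and 23, Trim52 held 86 and 50, and the amino acid transporter gene Slc7a15 held 84 and 47. Ankrd50 held 95 Pemt+/+ tags and no Pemt-/- region overlapped it. The 14 paired ratios, with the shared partners of D1Pas1 and Ldhal6b counted in full, ran from 0.245 to 0.910 with a median of 0.579. The 5′ ends thus had nearly the same middle value as the members as a whole.

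Over all 1023 members the Pemt+/+ tags ran from 80 to 3368 with a median of 93 (quartiles 85 and 108), against a median of 17 in the whole list. As many as 640 members held under 100 tags, and 29 held at least 300. The members were 316 to 6554 bp long with a median of 1013 bp (quartiles 764 and 1361), against 423 bp for all regions. Their tag density was 95.9 tags per kb (quartiles 74.0 and 130), against 40.8. The fold enrichment over background that the authors' caller gave was close to that of other regions, with a median of 17.6 (range 2.63 to 57.2) against 16.5. The median score, which is 10 times the negative log10 of the caller's p-value, was 431 against 104. High tag numbers thus came with long and dense regions, and not with a high fold over background.

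Length rose with the tag count throughout the lower classes, while the fold first rose and then fell. From 9 to 19 tags the median region was 361 bp long with a fold of 14.9, and from 40 to 59 tags it was 630 bp with 23.3, the highest median fold of any tag class. From 80 to 99 tags the medians were 960 bp and 19, from 100 to 149 tags 1138 bp and 16.8, and from 150 to 299 tags 1592 bp and 11.2. The regions with at least 300 tags had a median fold of 6.72 (quartiles 5.53 and 10.1), the lowest of the classes. Between 60 and 79 tags it was 21.9.

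Some members stood at the ends of that spread. A fold of at least 40 was found in 69 members, which were short (median 508 bp), lay in a gene in 26.1% of cases, and all had a Pemt-/- partner, with a median ratio of 0.642. The highest of them by tags lay in Chl1, a gene for a neural cell adhesion protein, with 226 Pemt+/+ and 206 Pemt-/- tags over 776 bp and folds of 43.5 and 43.7. The highest fold of all members, 57.2, belonged to a region of 375 bp upstream of the small RNA gene Rn4.5s, with 124 and 91 tags. Fold values under 10 were found in 146 members, whose median length was 1523 bp and which lay in a gene in 54.1% of cases. The plot of length and fold shows these groups at opposite corners.

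**Figure D1:**
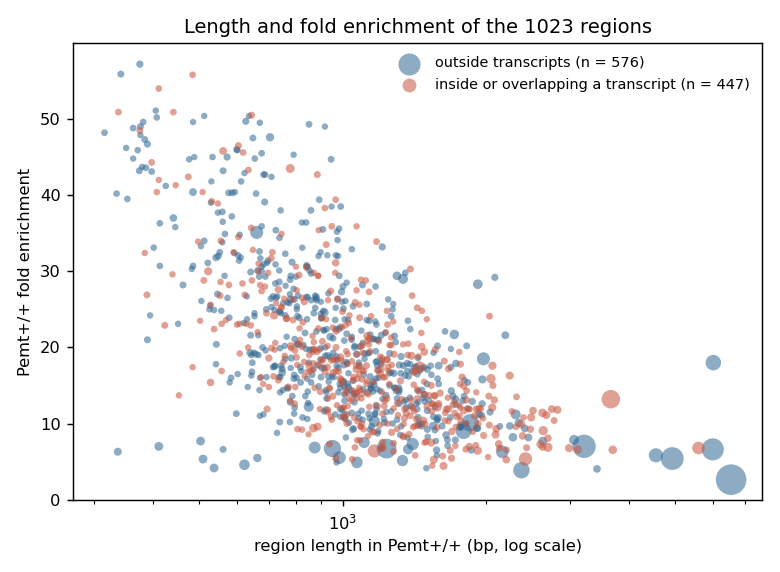
Length in bp (horizontal, log scale) and fold enrichment over background (vertical) of the Pemt+/+ regions with at least 80 tags, 1 point per region, with a point area that grows with the tags. Red points lie inside or over a transcript and blue points outside; most long regions have low folds, down to 2.63 for the mitochondrial region of 6554 bp, and the 69 regions with a fold of 40 or more have a median length of 508 bp.

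Nearly every member was also called in the Pemt-/- mouse. A Pemt-/- region overlapped 1015 of the 1023 members (99.2%, 95% Wilson confidence interval 98.5 to 99.6%), against 61.6% of all Pemt+/+ regions. The share was already 97.3% from 40 to 59 tags and 98.9% from 60 to 79 tags, so it was not particular to the members. The interval covers counting error only. Of the paired members, 931 met 1 Pemt-/- region, 83 met 2 and 1 met 3, and 23 shared their Pemt-/- region with another Pemt+/+ region. The tags of the partners were summed for each member, and the sum was divided by the Pemt+/+ tags.

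The ratio had a median of 0.580 (quartiles 0.498 and 0.667) over the 1015 pairs, against 0.684 (0.545 and 0.857) over all pairs. The total read numbers of the libraries are not in the lists, so a ratio is read against the other pairs and not against 1. Summed over the pairs, 77867 Pemt-/- tags faced 124112 Pemt+/+ tags, a ratio of 0.627, against 0.662 for all pairs. Divided by length, the median ratio was 0.625, against 0.715. In the 915 pairs of 1 region with 1 region the median was 0.577. The members were taken for high Pemt+/+ tags, and a ratio that has those tags below the line cannot be used to say that these places differ between the mice.

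The ratio scarcely moved around the threshold. The 152 regions of 80 to 82 tags had a median ratio of 0.580, a median length of 915 bp and a median fold of 20.8. The 168 regions of 77 to 79 tags had 0.583, 881 bp and 21.3. Between 60 and 79 tags the median ratio was 0.579 (quartiles 0.486 and 0.672), near that of the members. It was 0.818 from 9 to 19 tags and 0.613 from 20 to 39 tags, and the smallest Pemt-/- region listed held 8 tags, so partners under that number could not appear.

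Among the tag classes of members, only the highest had a median that left this level. The median ratio was 0.573 from 80 to 99 tags, 0.578 from 100 to 149 and 0.602 from 150 to 299. For the 29 regions with at least 300 tags, 27 of them paired, it was 0.741 (quartiles 0.637 and 0.927). These 29 regions held 24511 tags, and their summed ratio was 0.806, against 0.588 for the 994 members under 300 tags. They also lay apart in place: 8 were on unplaced sequence, 11 within 5 Mb of the first listed region of a chromosome (here called the chromosome start), 1 was mitochondrial and 9 were elsewhere, and 24 of the 29 had no transcript within 10 kb. Low fold, place and tag count moved together here, and their part in the ratio was not tested.

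**Figure D2:**
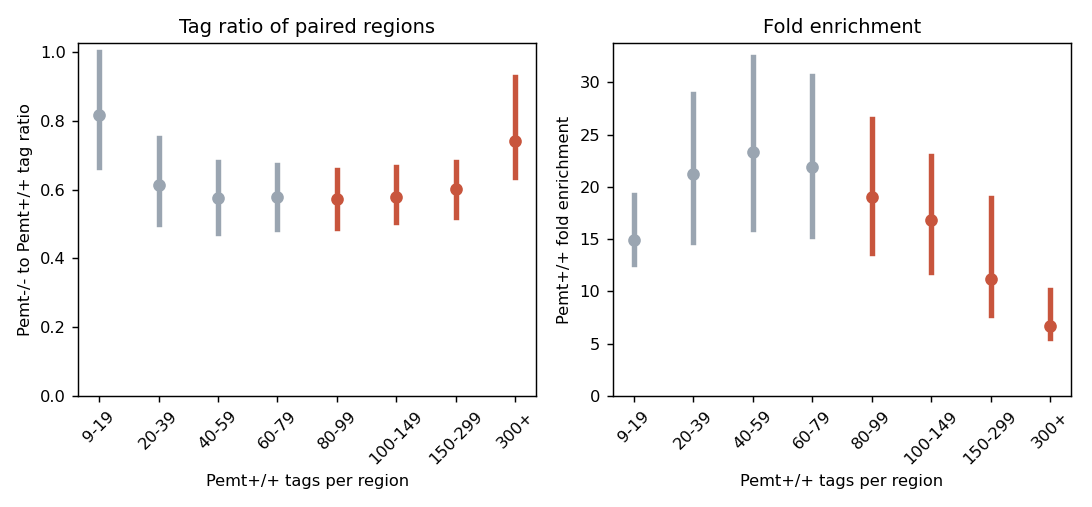
Ratio of Pemt-/- to Pemt+/+ tags (vertical) in overlapping pairs by class of Pemt+/+ tags (horizontal), with the Pemt+/+ fold enrichment by the same classes in the second panel; points are medians, bars run between the quartiles, and red marks the classes of members. The median ratio is 0.818 in the lowest class, between 0.573 and 0.613 from 20 to 299 tags, and 0.741 at 300 tags or more.

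A ratio of 1 or more, meaning at least as many Pemt-/- as Pemt+/+ tags, was found in 14 of the 1015 pairs (1.38%), against 15.3% of all pairs and 0.685% of pairs of 60 to 79 tags. In 7 of the 14 the Pemt-/- region was shared with another Pemt+/+ region and counted in full for each. A ratio of 0.5 or less was found in 265 (26.1%), against 18.6% of all pairs and 29.1% at 60 to 79 tags. Both shares rest on the contrast that chose the members, so nothing was read from them. The authors also deposited a shorter list for each mouse. What was compared to make it is not given in the sources used here. The Pemt+/+ one held 101 of the members (9.87%), against 4.59% of all Pemt+/+ regions. It held 5.72% of regions of 40 to 59 tags and 7.03% of those of 60 to 79 tags. The share was thus already rising below the limit for members, and nothing was read from it either. The caller's false discovery rate for the 101 members was 21.1% to 36.4%, with a median of 32.4%. Their median tag ratio was 0.420 (range 0.174 to 0.847).

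**Figure D3:**
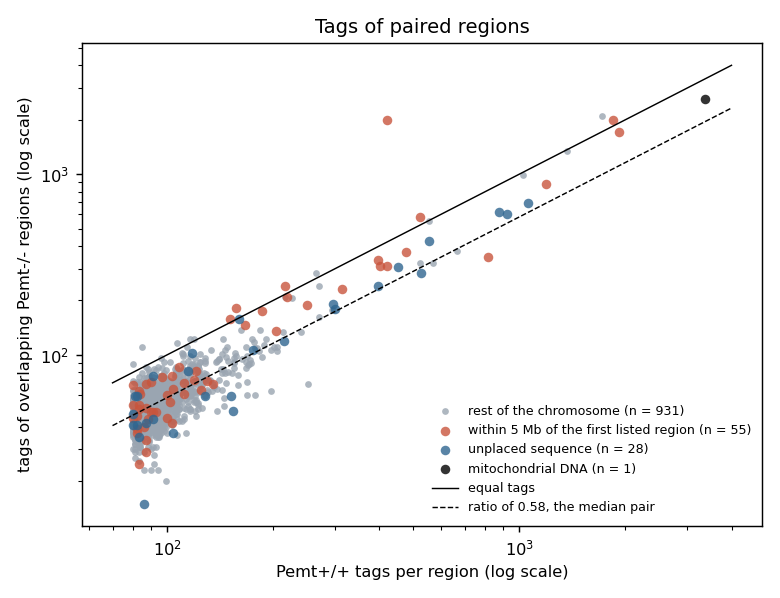
Tags in Pemt+/+ (horizontal) and in the overlapping Pemt-/- regions (vertical), both on log scales, for each pair, coloured by where the region lies; the solid line marks equal tags and the dashed line the median ratio. Most points follow the dashed line at 0.580, and the regions with most tags lie nearer to equality.

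The highest member was the only mitochondrial region, from position 1 to 6554, with 3368 Pemt+/+ and 2589 Pemt-/- tags and a fold of 2.63, the lowest of all members. At the start of chromosome 9, from 2999937 to 3003154, there were 1923 and 1704 tags, and from 3023130 to 3028059 there were 1838 and 1998. On chromosome 17 a region from 39979877 to 39985874 held 1720 and 2101 tags, the largest excess of Pemt-/- tags among these. On chromosome 2 the region from 98506329 to 98507565 held 1369 and 1351 tags, at 1107 Pemt+/+ tags per kb the densest of all members, and its neighbour from 98502267 to 98503218 held 1026 and 993. The mitochondrial and chromosome 2, 9 and 17 regions lie in no listed gene, and their counts in the 2 libraries were closer to each other than those of most members.

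Lower down in the first 15, the unplaced regions were further from equality, with 1060 against 692, 924 against 604 and 873 against 614 tags. A region at the start of chromosome 11, from 3000021 to 3006033, held 812 and 347 tags, but its Pemt-/- partner was 1611 bp long against 6013 bp. On chromosome 12, from 20235796 to 20240349, there were 664 and 376 tags. A region on chromosome 9 from 35112631 to 35113290 held 555 and 551 tags with a fold of 35.1, the highest fold of the 15. The other 3 of the 15 lay at Sfi1 and Mid1 and were the only ones in a gene. In all, the 15 regions held 18472 tags, and 9 of their 14 pairs had a ratio above the median of all pairs.

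Position set some members apart from the list as a whole. Unplaced sequence held 29 members (2.83%) but 0.310% of all Pemt+/+ regions, and the chromosome starts held 55 (5.38%) against 3.45%. A few blocks gave many of these. Of the 29, 21 lay in 1 cluster. Of the 55, 12 lay in 38.4 kb of chromosome 9 and 6 in 96.0 kb of chromosome 11. The chromosome 9 block held 6998 of the 13718 Pemt+/+ tags of members at chromosome starts. Among members of 80 to 99 tags, the share at chromosome starts was 3.44%. The unplaced members had a median of 152 tags and a median ratio of 0.603, and those at chromosome starts 104 tags and 0.662. At chromosome starts the summed ratio was 0.749, and 6 of the pairs there (10.9%) had a ratio of 1 or more, of which 4, all on chromosome 9, rested on a shared Pemt-/- region, leaving 2 others. The other 938 members had a median ratio of 0.576. Most members therefore lay on placed chromosomes and outside the chromosome starts.

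By chromosome, the share of Pemt+/+ regions that reached 80 tags was 18.9% (21 of 111) on unplaced sequence without a chromosome, and the only mitochondrial region also reached it. Among placed chromosomes it was highest on chromosome 10, with 85 of 7885 (1.08%), followed by chromosome 8 (0.976%) and chromosome 15 (0.947%). It was 0.554% on chromosome 11 and 0.528% on chromosome 19. Chromosome X, of which a male has 1 copy, had 6 of 1707 (0.351%). No region of the 48 placed on chromosome Y reached 80 tags. On unplaced pieces assigned to chromosome Y, 2 of 212 regions did (0.943%). These shares describe 1 library.

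**Figure D4:**
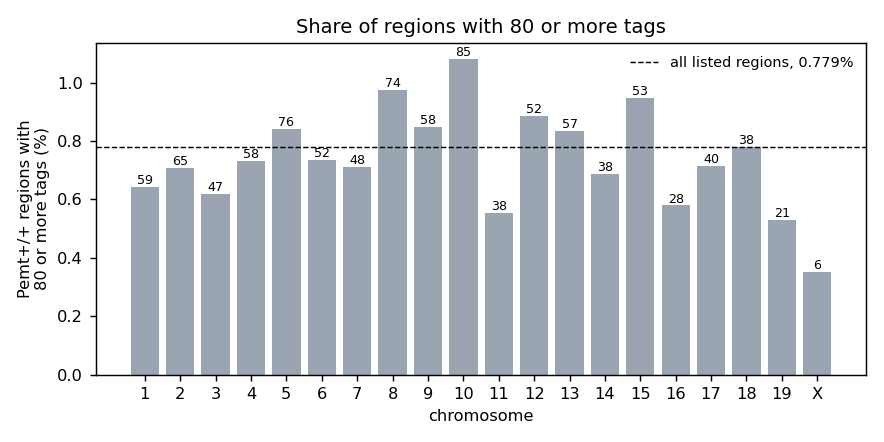
Share of Pemt+/+ regions on each chromosome that held at least 80 tags, in percent, with the number of members above each bar and the share over all listed regions as a dashed line. Chromosome 10 is highest among the numbered chromosomes at 1.08%, chromosome X is at 0.351%, and the share over all listed regions is 0.779%.

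How many members lay near each other depended on the gap allowed. With members joined at gaps of up to 1 Mb, 493 (48.2%) fell into 102 clusters of at least 3, 210 into pairs and 320 (31.3%) stood alone. With gaps of up to 100 kb or 10 kb the share in clusters was 11.6% or 3.62%, and with gaps of 1 Mb it was 81.4% or 26.1% where members were chosen at 60 or 100 tags. Other regions were not joined in the same way. Most clusters were small: 48 had 3 members and 7 had 10 or more. Within 10 kb a member had a median of 2 other Pemt+/+ regions of any size, against 1 for all regions, and 18.2% of members had none, against 24.9%.

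The tightest large cluster was at the start of chromosome 9. Between 2999937 and 3038361, a stretch of 38.4 kb, all 12 listed Pemt+/+ regions were members. Together they held 6998 tags, and 11 Pemt-/- regions there held 5967, a summed ratio of 0.853. Of the 12 regions, the 5 with fewest tags held 108 to 313. On chromosome 2, all 4 regions between 98502267 and 98507565 were members, with 2952 tags. Those with a partner held 2611 tags, against 2553 in 3 Pemt-/- regions, a summed ratio of 0.978. In both places every Pemt+/+ region of the stretch was a member.

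At the start of chromosome 11, 6 of 7 regions between 3000021 and 3095976 were members and held 2941 tags, with a median ratio of 0.740. On unplaced sequence without a chromosome, 21 of 66 regions between 3563218 and 5497234 held 6869 tags, with a median ratio of 0.606. On chromosome 13, 6 of 7 regions between 12951762 and 13127838 were members, held 88 to 125 tags and lay in no listed gene. Such blocks differed among themselves, since their ratios ran from near the median of the members to near equality.

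Other clusters were spread over longer stretches, with fewer of the regions there being members. On chromosome 10, 20 members lay between 114778735 and 121360619 among 917 regions (2.18%), with a median ratio of 0.548. Genes there include Mdm2, which encodes the ubiquitin ligase of p53, Grip1, Helb, Cpm, Kcnmb4, Msrb3 and Srgap1. Another 12 members lay between 66235069 and 70718668 of the same chromosome, around Ank3, which encodes an ankyrin, and Arid5b. On chromosome 8, 10 of 127 regions between 49319884 and 50053700 were members, all without a listed gene, their tags ran from 81 to 214, and their median ratio was 0.479. On chromosome 4, 12 of 44 regions between 145456105 and 146847436 (27.3%) were members, several in the gene model Gm13152, with ratios from 0.337 to 1.05 (median 0.635).

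Genes were near about as many members as regions in general. A member lay inside or overlapped a transcript in 447 cases (43.7%, Wilson interval 40.7 to 46.8%), against 39.6% of all Pemt+/+ regions, and 518 (50.6%) had no transcript within 10 kb, against 51.5%. Of those in genes, 406 lay wholly inside the transcript and 26 (2.54%) covered a 3′ end, against 0.590% of all regions. Another 34 were upstream and 24 downstream, at up to 10 kb. A longer region is more likely to reach a transcript end, and the members were longer than other regions. The part of length in these shares was not tested. Whether a region lay in an exon or an intron was not analysed here, because the lists do not say.

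In all, 494 gene symbols of 14145 with any Pemt+/+ region (3.49%) had a member, in 505 member regions. A single member was found in 441 genes, 2 members in 42 and 3 or more in 11. The 395 genes with a member inside or over them were long, at a median of 84.9 kb, while the 10773 genes with any such region had 31.2 kb. A longer gene can hold more regions, and each is a further chance of a member. The genes were not matched by number of regions, and its part in the difference in length was not tested. Titin (Ttn), the giant spring protein of striated muscle, had the most members, 9 of its 49 regions, all between 76543398 and 76753695 of chromosome 2.

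In the Ttn members the tags in Pemt+/+ and Pemt-/- were 169 and 98, 521 and 324, 94 and 62, 84 and 49, 81 and 45, 81 and 44, 88 and 47, and 82 and 57, in the order of the chromosome, and the region from 76574019 held 149 with no overlapping Pemt-/- region. The 8 paired ratios lay between 0.534 and 0.695. A single gene thus gave members of up to 5597 bp, with between 81 and 521 tags and a narrow range of ratios in tags. In tags per kb the 8 ratios ran more widely, from 0.414 to 0.785.

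Fat1, which encodes a giant atypical cadherin, had 5 members on chromosome 8, with 240 and 134, 116 and 60, 169 and 71, 168 and 91, and 86 and 63 tags in Pemt+/+ and Pemt-/-. Their ratios ran from 0.420 to 0.733. Sfi1 had 5, and all 5 of its regions were members, with 151 and 158, 249 and 189, 420 and 311, 119 and 73, and 1190 and 880 tags. The first of them was at or above equality and the others were not.

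Gm13152, named Zfp982 in the RefSeq table and hence a zinc finger gene, had 7 members, with 92 and 59, 178 and 60, 171 and 89, 127 and 73, 89 and 56, 144 and 122, and 116 and 122 tags. The last 2 share the same Pemt-/- region of 122 tags, which faced 260 Pemt+/+ tags in all (ratio 0.469). The shared partner was counted for both, and that raised their single ratios.

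Another 4 genes had 3 members each without sharing them. Dicer1, the nuclease that makes small RNAs from hairpins, had 91 and 47, 80 and 41, and 98 and 51 tags, at ratios between 0.512 and 0.520. The Dicer1 region of 91 tags lay downstream of the transcript. Odz2 (Tenm2), a teneurin of neuronal surfaces, had 116 and 64, 98 and 62, and 121 and 56. Ptpn14, a tyrosine phosphatase, had 80 and 35, 123 and 76, and 109 and 57. Dnahc8 (Dnah8), a dynein of cilia and flagella, had 80 and 47, 80 and 38, and 98 and 40. In tags, the ratios at Dicer1 were nearly equal, and those at the other genes were not. In tags per kb the Dicer1 ratios were 0.742, 0.365 and 0.661.

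Irak4, a kinase of interleukin and Toll-like receptor signalling, and its neighbour Pus7l shared a pair of members with 85 and 44 and 106 and 80 tags. Each had 1 more, with 94 and 53 tags at Irak4 and 89 and 56 at Pus7l. Mid1, a ubiquitin ligase gene that crosses the boundary of the region shared by X and Y in the mouse, had 3 members on chromosome X. They held 581 Pemt+/+ tags with no overlapping Pemt-/- region, 569 and 321, and 295 and 177. The last of these lay downstream of the transcript. Mid1 was thus the gene assigned to 3 of the 6 members on chromosome X.

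Zinc finger protein genes, a large family of DNA-binding proteins of which many silence retrotransposons, had a member in 24 of 243 genes with a region (9.88%), against 3.49% of all genes, by the symbols in the lists. By the current RefSeq symbols it was 27 of 280 (9.64%), since Gm13152 (Zfp982), Gm13251 (Zfp992), Gm1008 (Zfp663) and BC066028 (Zfp941) then count and Zfp161 (Zbtb14) does not. The 24 regions of the listed symbols were long, with a median of 1574 bp, and 23 of them lay inside the transcript. Other members in genes had a median of 1074 bp. The Pemt+/+ tags of the 24 zinc finger regions ran from 81 to 251. Of these 24, 10 lay on chromosome 7, against 9 of the 424 other members in genes. How many of the 243 zinc finger genes with a region lie on chromosome 7 was not counted, so nothing was read from this. The paired ratios ran from 0.275 to 0.815 with a median of 0.549, near the 0.583 of the other members in genes.

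The highest was Zfp462, with 251 Pemt+/+ and 69 Pemt-/- tags, and a further region of it held 82 and 49. Zfp619 held 205 and 105, Zfp30 held 182 and 105, and Zfp161 (Zbtb14) held 172 and 94. Zfp334 held 170 and 88, Zfp27 held 149 and 80, and Zfp12 held 144 and 83. In each of these the Pemt-/- count was lower, and that of Zfp462 was the lowest relative to Pemt+/+. Its Pemt-/- region was 1006 bp long against 2640 bp, and in tags per kb its ratio was 0.721 rather than 0.275.

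Of 35 imprinted genes with a region, 7 had a member (20%, against 3.49% of all genes), but these were 4 regions, 3 of them shared by neighbouring genes. Peg10 and Sgce had 125 and 64 tags. Gpr1 had 102 and 72, and Commd1 with Zrsr1 had 94 and 23. Gnas and Nespas, at the locus of the stimulatory G protein, had 82 and 51. Of 20 germline genes with a region, 3 had a member (15%, against the same 3.49%): Piwil1, with a downstream region of 100 and 49 tags, Tdrd1 with 91 and 75, and Mov10l1, with an upstream region of 82 and 50. Only the Tdrd1 region lay in the listed gene. That at Piwil1 was 4649 bp away and covered the 3′ end of Rimbp2, and that at Mov10l1 was 6317 bp away, inside Mlc1. All 3 genes act in the pathway of Piwi-interacting RNAs, which silences transposons in germ cells. Piwil2, of the same pathway, was also on the list and had no member.

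Of 12 hepatocyte genes with a region, none had a member, a list too short to be read against the 3.49% of all genes, and the highest region lay at Ttr, the transthyretin gene, with 68 tags. Olfactory and vomeronasal receptor genes, which occur in large clusters, had a member in 3 of 415 (0.723%), and these were 2 regions. By the listed symbols no member was found at the 34 histone genes or 5 major urinary protein genes with a region. Both groups are again too small to be read against the 3.49%. By the same symbols none was found at the 90 Ugt, Cyp and Sult genes, 75 keratin genes or 68 protocadherin genes with a region. A count of 0 in groups of this size was not read against the 3.49% either. By current symbols, however, 2 sulfotransferase genes had members: Gm766 (Sult6b2), with 86 and 51 and 142 and 83 tags, and Gm4794 (Sult3a2), with a downstream region of 80 and 57, so that the Ugt, Cyp and Sult genes had 2 of 96 (2.08%). Small RNA genes had 1 of 19, the Rn4.5s region, and symbols of gene models 40 of 1263 (3.17%), or 13 of 431 (3.02%) when those with a current gene name are left out. Pemt itself had 4 Pemt+/+ regions of at most 35 tags and no member. The lists hold no expression values, so the tissue label was not checked.

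The lowest ratios came with Pemt-/- regions much shorter than their Pemt+/+ partners, and 2 of the 5 highest with a shared Pemt-/- region. The lowest, 0.174, was an unplaced region of 86 and 15 tags. In Mical3, a gene for a cytoskeletal monooxygenase, 99 tags over 1823 bp faced 20 over 600 bp, a ratio of 0.202 in tags and 0.614 in tags per kb. At Commd1 and Zrsr1, on chromosome 11 from 22871875 to 22874187, 94 tags over 2313 bp faced 23 over 548 bp, a ratio of 0.245 in tags and 1.03 in tags per kb. Regions on chromosome 6 from 122063988 (90 and 23 tags) and on chromosome 12 from 25109375 (86 and 23 tags) completed the 5 lowest. At Mical3 and Zrsr1 the Pemt-/- region was much the shorter, and a ratio in tags per kb was less extreme or near 1.

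At the other end, the ratio of 4.76 belonged to a chromosome 9 region from 3021965 to 3023036 with 420 Pemt+/+ tags. A single Pemt-/- region of 1998 tags spanned it and its neighbour of 1838 tags, and over both the ratio was 0.885. The next were the chromosome 17 region at 1.22 and a region upstream of Txndc11, on chromosome 16 from 11143943 to 11144811, with 85 and 110 tags (1.29). A chromosome 3 region from 5860197 held 157 and 181 (1.15). These 3 were pairs of 1 region with 1 region of like length, and in tags per kb their ratios were 1.21, 1.32 and 1.16. Last, a chromosome 9 region from 3037859 held 216 and 241 (1.12), again with a shared partner. The Txndc11 and chromosome 3 regions and the chromosome 17 region were the ones of the 5 that belonged to no cluster or pair of members. Partners of 4 members were in the shorter Pemt-/- list, at a false discovery rate of 100%, those on chromosomes 16 (110 tags) and 3 (181) among them.

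Only 8 members had no overlapping Pemt-/- region, and each had one nearby. The Mid1 region of 581 tags was 3620 bp from a Pemt-/- region of 286 tags, and a chromosome 2 region of 341 tags, from 98503733 to 98504354, was 510 bp from one of 993. The unplaced region of 185 tags was 552 bp from one of 308, and the Ttn region of 149 tags 3415 bp from one of 30. On chromosome 13 the region from 12953012, with 125 tags, was 210 bp from one of 74. At Ankrd50, with 95 tags, the distance was 304 bp (41 tags), at Ankrd11, with 83 tags, 1025 bp (58 tags), and on chromosome 4 from 42099761, with 80 tags, 800 bp (84 tags). Every one of the 8 therefore had a Pemt-/- region at most 3620 bp from its edge. Their median fold was 5.42, lower than that of the members as a whole.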

How the data were processed

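Methylated DNA was captured from the liver of 1 mouse per genotype with a kit and sequenced. The submitters' processing notes name CASAVA version 1.8.2, Bowtie and genome build mm9. Region names are those of the MACS peak caller. Its version, settings and control, and the handling of duplicate and multi-copy reads, are not given in the sources used here, and each can change tag numbers. The authors deposited a longer and a shorter region list per mouse. The deposited tag numbers are whole counts, not normalized. The deposited score is 10 times the negative log10 p-value, the deposited fold enrichment is a ratio over background, and the deposited false discovery rate is a percent. Total read numbers per library were not analysed here.

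The longer lists were used, with each region once. Lists were overlapped with bedtools version 2.31.1 (minimum 1 bp) and processed with Python version 3.11.15, pandas version 2.3.3, numpy version 2.4.6, scipy version 1.17.1 and matplotlib version 3.10.9. Clusters were at least 3 members with gaps of up to 1 Mb, and chromosome starts reached 5 Mb from the first listed region of a chromosome. Shares have Wilson 95% intervals, which cover counting error only. Tags of all overlapping Pemt-/- regions were summed. RefSeq GRCm38.p6 served for names, gene lengths and promoters, and 489 of the 494 gene symbols matched by gene ID. The calculations were tested on simulated data.

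Members and gene lists were chosen with earlier results of these data known. Named were the 15 members with most tags, the 5 lowest and 5 highest ratios, members without a partner, members at 5′ ends, genes with several members and genes of the lists. The alternatives were limits of 60 and 100 tags, selection by tags per kb, an overlap of 50% of both regions, the upper 50% of regions by score, the Pemt-/- list as the starting point, fold in place of tags, and gaps of 100 and 10 kb. The members under 300 tags, the ratio in tags per kb within a pair, and gene families counted by current RefSeq symbols were added after seeing the data.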

Additional observations from a re-analysis of the deposited data

Results flagged for a closer look

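The Pemt-/- library had 138 regions of at least 80 tags, and 130 of them (94.2%) overlapped a member. Another 5 overlapped Pemt+/+ regions of fewer tags, and 3 overlapped none, which was the reason to look at them again. Of these, 2 lay in Mid1 on chromosome X: the region from 166423441 to 166424310 held 306 Pemt-/- tags and was 3411 bp from a Pemt+/+ region of 569 tags, and the region from 166422128 to 166423298 held 286 tags and was 3620 bp from the Pemt+/+ region of 581 tags that had no Pemt-/- partner. The last lay on unplaced sequence from 3638528 to 3639458, held 95 tags and was 220 bp from a Pemt+/+ region of 300 tags. With 1 library per genotype none of these differences was tested.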

How the results depend on the processing

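With members chosen at 60 or 100 tags in place of 80, 3383 or 383 regions were members, their genes were 1361 or 219, 81.4% or 26.1% lay in clusters, 39.5% or 47.8% lay in or over a transcript, and the summed ratio was 0.603 or 0.669. At 100 tags, 8.62% lay at chromosome starts. With members chosen by tags per kb, 99.6% were paired, the summed ratio was 0.671, 36.4% lay in clusters, 37.8% were in a transcript and the median length was 373 bp. With the Pemt-/- list as the starting point the summed ratio was 0.713 and 44.1% lay in clusters. An overlap of 50% of both regions paired 91.5%, and the upper 50% by score 95.7%. Members under 300 tags had a summed ratio of 0.588. With gaps of 100 or 10 kb the share in clusters was 11.6% or 3.62%. The median ratio was 0.948 in fold enrichment in place of tags. With the Pemt-/- list as the starting point it was 0.710, above the 0.684 of all pairs. The low median ratio of the members thus depended on which list chose them. In the other settings it was between 0.577 and 0.625. Of 58 alternative values, 34 moved by less than the limit set for them. That limit was wide for medians, since 0.710 counted as within it of 0.580. The cause of each move was not tested beyond what the setting itself changes. No paired analysis was possible because only 1 mouse stands for each genotype, and for the same reason no replicate could be left out. Library totals and read duplicates were not analysed here, so depth limits every ratio near the lower end of the lists.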
